A study of Mirounga angustirostris with 8 samples.

Results

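The 10 genes described here are the sarcomeric actins ACTA1 and ACTC1, the transcription factor SRF, and ABRA, ANKRD1, ANKRD2, CSRP3, XIRP1, XIRP2 and SMPX, which encode stress- and load-sensing proteins of striated muscle. They were chosen by symbol. All 10 were found among the 24338 entries of the count table that name a gene, and all 10 were among the 14312 genes with enough reads to be tested. The samples were biopsies of longissimus dorsi, a large muscle of the back, from free-ranging adult female northern elephant seals (NES), which fast on land with reduced activity during the annual molt. The 4 post-molt libraries (late molt in the labels) came from seals 4448, 5572, 9678 and X410 and were taken late in the molt, after 34 days on average over the study's animals. The 4 pre-molt libraries (early molt in the labels) came from seals 5572, 5842, 6762 and C497, all biopsied no more than 5 days after they came ashore. Of the 7 seals with a library here, only seal 5572 had one at both times, so the comparison of post-molt with pre-molt muscle is mostly one between different animals. Fasting, inactivity and the molt itself ran together in every post-molt seal and cannot be told apart.

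Serum response factor (SRF) is a transcription factor that binds CArG boxes, short sequence elements in the promoters of muscle and cytoskeletal genes. Its cofactors of the MRTF family are held in the cytoplasm by actin monomers and are released when actin polymerizes, which ties transcription of actin genes to the state of the actin cytoskeleton and to mechanical load. A separate set of cofactors, the ternary complex factors, links SRF to growth factor signals and to immediate-early genes. ABRA (also called STARS) binds actin in the sarcomere and promotes MRTF entry into the nucleus, and the muscle ankyrin repeat proteins, muscle LIM protein and the Xin proteins sit at the Z-disc, the titin filament or the cell junctions of striated muscle, where they are known for responding to stretch and overload in rodent and human muscle.

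Named genes received between 30769570 and 61216192 counts per post-molt library and between 37897904 and 56137977 per pre-molt library. Levels are given as CPM, counts scaled to a common library total, after TMM, a factor per library that corrects for a few very abundant genes. CPM takes no account of gene length, so levels of different genes were not compared. Skeletal muscle fiber markers (MB, CKM, TTN, DES and others) were abundant in every library, with a summed level of 146512 to 199095 CPM in post-molt and 134304 to 184733 CPM in pre-molt libraries. Of the 10 tested, 5 had higher and 5 lower post-molt means, and 0 passed the adjusted threshold. MB (myoglobin), with the most reads of the list, averaged 110535 CPM post-molt and 69243 CPM pre-molt. Its log2 fold change was 0.67 (edgeR unadjusted p = 0.0132), while that of CKM was -0.64 (edgeR unadjusted p = 0.0244). The 7 fast fiber markers tested summed to 4583 to 6961 CPM post-molt against 8238 to 23427 CPM pre-molt, and all 7 had lower post-molt means, although 0 passed the adjusted threshold and 4 had an unadjusted p under 0.05. Slow fiber markers summed to 54707 to 77774 CPM post-molt and 44908 to 96745 CPM pre-molt, and 1 of 9, ATP2A2, the calcium pump of slow and cardiac muscle, was called higher post-molt, by 1.09 on the log2 scale with an edgeR adjusted p of 0.0419. Fibroblast markers summed to 270 to 548 CPM post-molt and 535 to 1669 CPM pre-molt, with the highest sum in pre-molt 5842, and all 10 had lower post-molt means, 6 of them at an unadjusted p under 0.05 and 0 at the adjusted threshold. Markers of regenerating fibers and satellite cells summed to 44.0 to 74.4 CPM post-molt and 50.3 to 94.6 CPM pre-molt. Of the 6 tested, 4 had lower and 2 had higher post-molt means. NCAM1 and MYOG were lower at an edgeR unadjusted p under 0.05, and 0 passed the adjusted threshold. MYMK and MYMX, which define fusing myoblasts, had between 0 and 7 reads in any library. The part of fiber type and of connective tissue in the results was not tested. In bulk muscle, fewer cells of a type and less RNA per cell cannot be told apart.

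No member passed the test across all genes (edgeR's quasi-likelihood test, Benjamini-Hochberg adjusted p under 0.05), where 50 of 14312 genes, 0.349%, were called. An unadjusted p under 0.05 was reached by 4 members and by 11.4% of all genes. ABRA, SMPX and SRF had higher post-molt means, as 5.2% of all genes did at this p, and ACTA1 a lower one, as 6.22% did. DESeq2, run as an alternative, called ACTA1 lower and ABRA higher, against 6.44% of the 10117 genes it could adjust (3.13% lower and 3.31% higher). Of the 10 log2 fold changes (post-molt over pre-molt), 5 were positive and 5 negative, with a median of 0.01, beside a median of -0.04 over all genes tested. The members therefore did not share a direction.

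**Figure D1:**
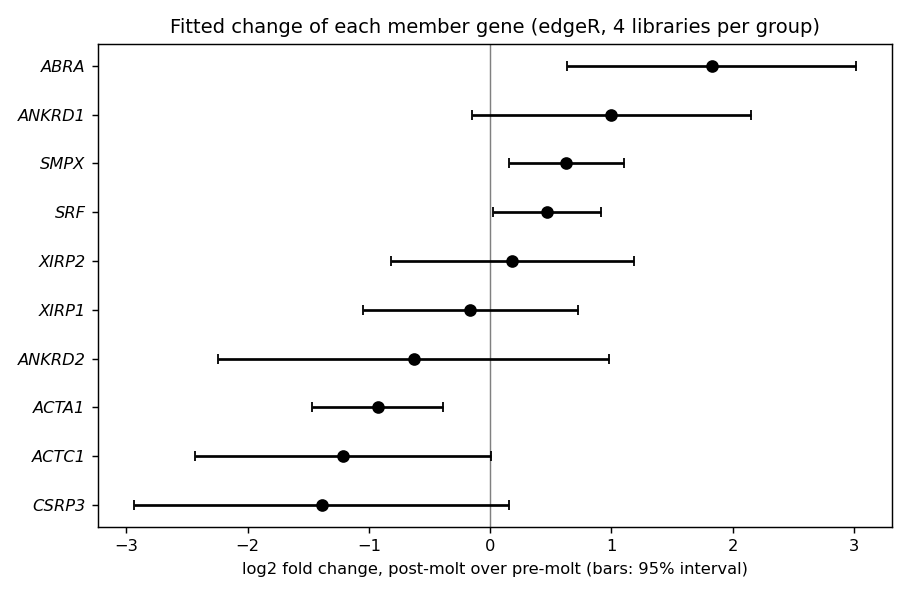
Log2 fold change of each member, post-molt over pre-molt, with its 95% confidence interval from the edgeR fit over 8 libraries, and the vertical line at 0 for no difference. The intervals of ACTA1, SRF, ABRA and SMPX exclude 0 before adjustment, with ACTA1 at -0.93 and ABRA at 1.83.

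ACTA1 encodes skeletal alpha-actin, the main actin of the adult sarcomere's thin filament. It had 35014, 58123, 41255 and 46350 CPM in post-molt seals 4448, 5572, 9678 and X410, against 108249, 100963, 73544 and 61066 CPM in pre-molt seals 5572, 5842, 6762 and C497. Every post-molt library was below every pre-molt library, and ACTA1 was the only member whose groups did not overlap, a pattern that 9.16% of all genes tested showed in either direction (5.11% lower and 4.05% higher). The means were 45185 ± 9792 CPM post-molt and 85956 ± 22329 CPM pre-molt (SD, n = 4 each), 1.90-fold lower post-molt. The log2 fold change was -0.93 ± 0.25 (SE; 95% confidence interval -1.47 to -0.39), with an edgeR unadjusted p of 0.00267 and an adjusted p of 0.123. DESeq2 gave -0.92 with an adjusted p of 0.00405, and over all 18 alternatives the adjusted p ran from 0.00405 to 0.434. ACTA1 took 3.99% to 5.90% of all counts in post-molt and 6.48% to 9.48% in pre-molt libraries, and these shares are precise as counts (the 95% Wilson interval of the highest was 9.476% to 9.493%, for counting error only). It was the most-read gene in each of the 4 pre-molt libraries and the second most-read in each of the 4 post-molt libraries.

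ACTC1, cardiac alpha-actin, is the sarcomeric actin of the heart and of developing skeletal muscle and stays at a lower level in adult limb and trunk muscle. Its CPM was 219, 48.1, 274 and 337 in post-molt seals 4448, 5572, 9678 and X410, against 141, 400, 579 and 916 in pre-molt seals 5572, 5842, 6762 and C497. The groups overlapped because the pre-molt library of seal 5572 was lower than 3 of the 4 post-molt libraries. Means were 219 ± 124 CPM post-molt and 509 ± 325 CPM pre-molt (SD, n = 4 each), and the log2 fold change of -1.21 ± 0.56 (SE) did not pass the test (edgeR adjusted p = 0.440). Without pre-molt C497 it was -0.76. ACTA1 and ACTC1 are close in sequence and the authors' counting dropped reads that matched more than 1 place, so counts of both are uncertain to the extent that such reads were lost.

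In seal 5572 both actins were lower post-molt than pre-molt, by a log2 difference of -0.90 for ACTA1 and -1.55 for ACTC1, which is 1 pair of libraries and was not tested. The ratio of ACTC1 to ACTA1 counts within a library, which does not depend on scaling, was 0.00625, 0.000828, 0.00664 and 0.00726 in post-molt seals 4448, 5572, 9678 and X410, against 0.00130, 0.00396, 0.00787 and 0.0150 in pre-molt seals 5572, 5842, 6762 and C497. At both times seal 5572 had the lowest ratio of its group. The mean log2 ratio differed by -0.32 (exact permutation test, two-sided, p = 0.714, Benjamini-Hochberg adjusted over 3 ratios 0.743), and this difference was 0.43 without post-molt 5572 and 0.21 without pre-molt C497. The smallest p that the 70 divisions of 8 libraries allow is 0.0286.

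Among the non-sarcomeric actins no difference passed the test, and the sign of all 4 changed under some alternative. ACTB and ACTG1, the cytoplasmic actins, averaged 279 and 176 CPM post-molt and 256 and 165 CPM pre-molt, with log2 fold changes of 0.13 ± 0.22 and 0.09 ± 0.22 (SE). ACTA2, the actin of vascular smooth muscle, averaged 23.0 CPM post-molt and 23.2 CPM pre-molt, and ACTG2, the enteric form, 3.45 CPM post-molt and 5.24 CPM pre-molt. Of these 4 genes 0 had an unadjusted p under 0.05. Whether ACTA1 differed from them was not tested.

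**Figure D2:**
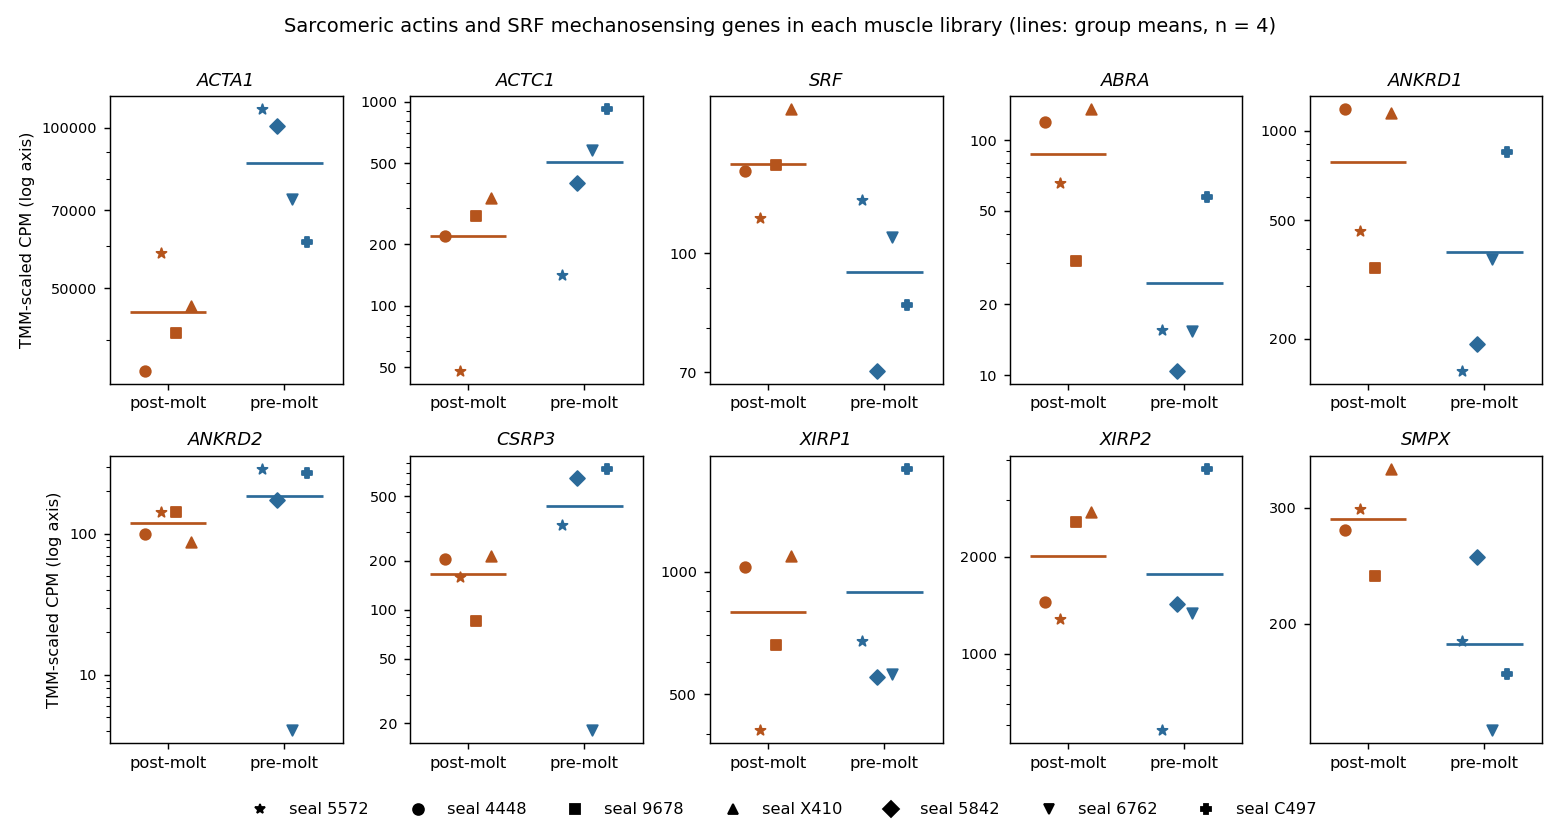
TMM-scaled CPM (log axis) of the 10 members in each library, 1 panel per gene, with post-molt seals left of pre-molt seals, a symbol per seal and a line at each group mean (n = 4). Post-molt ACTA1 lies between 35014 and 58123 CPM, below all 4 pre-molt libraries (61066 to 108249 CPM), while ANKRD2 and CSRP3 each show 1 pre-molt library, seal 6762, far under the other 3.

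SRF itself had 128, 111, 131 and 154 CPM in post-molt seals 4448, 5572, 9678 and X410, against 117, 70.3, 105 and 85.5 CPM in pre-molt seals 5572, 5842, 6762 and C497. The pre-molt library of seal 5572 lay above that seal's own post-molt library, and it was the only pre-molt value inside the post-molt range. Means were 131 ± 17.7 CPM post-molt and 94.6 ± 20.8 CPM pre-molt (SD, n = 4 each). The log2 fold change was 0.47 ± 0.20 (SE; 95% confidence interval 0.03 to 0.91), with an edgeR unadjusted p of 0.0390 and an adjusted p of 0.388.

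ABRA had the largest positive fold change of the 10. Its CPM was 120, 65.5, 30.7 and 135 in post-molt seals 4448, 5572, 9678 and X410, against 15.5, 10.4, 15.4 and 57.4 in pre-molt seals 5572, 5842, 6762 and C497. Every post-molt library exceeded 3 of the 4 pre-molt libraries, and only pre-molt C497 overlapped, above post-molt 9678. Means were 87.8 ± 48.4 CPM post-molt and 24.7 ± 21.96 CPM pre-molt (SD, n = 4 each), 3.55-fold higher post-molt. The log2 fold change was 1.83 ± 0.55 (SE; 95% confidence interval 0.63 to 3.02), with an edgeR unadjusted p of 0.00583 and an adjusted p of 0.178. DESeq2 gave 1.84 with an adjusted p of 0.0159. Without pre-molt C497, edgeR gave 2.67 with an adjusted p of 0.0489, and ABRA was then called, the only member called among 0.328% of all genes. Over all alternatives the adjusted p ran from 0.0159 to 0.440. In seal 5572 the log2 difference was 2.07, a single pair with no test.

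ANKRD1 (CARP) and ANKRD2 (ARPP) belong to the muscle ankyrin repeat family, whose members bind titin at the sarcomere's I-band and can enter the nucleus. ANKRD1 had 1178, 461, 346 and 1149 CPM in post-molt seals 4448, 5572, 9678 and X410, against 157, 192, 370 and 846 CPM in pre-molt seals 5572, 5842, 6762 and C497. Values were spread widely in both groups and overlapped. Means were 783 ± 442 CPM post-molt and 391 ± 317 CPM pre-molt (SD, n = 4 each), and the log2 fold change was 1.002 ± 0.53 (SE; edgeR adjusted p = 0.533). It was 1.71 (edgeR adjusted p = 0.154) without pre-molt C497, the pre-molt library in which ANKRD1 was highest.

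ANKRD2 had 100, 143, 144 and 88.2 CPM in post-molt seals 4448, 5572, 9678 and X410, against 288, 173, 4.04 and 270 CPM in pre-molt seals 5572, 5842, 6762 and C497. The post-molt libraries lay close together, whereas pre-molt 6762 had only 219 reads for this gene where the other 7 libraries had between 4449 and 16106. Means were 119 ± 28.9 CPM post-molt and 184 ± 130 CPM pre-molt (SD, n = 4 each). The log2 fold change was -0.63 ± 0.74 (SE; edgeR adjusted p = 0.847), and limma-voom gave 0.46, the opposite sign. Without pre-molt 6762 edgeR gave -1.04 with an adjusted p of 0.116.

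CSRP3 encodes muscle LIM protein, a Z-disc and nuclear protein typical of slow and cardiac muscle. Its CPM was 205, 159, 84.7 and 215 in post-molt seals 4448, 5572, 9678 and X410, against 335, 649, 18.1 and 738 in pre-molt seals 5572, 5842, 6762 and C497. Pre-molt 6762 was again the lowest of all 8 libraries, so the groups overlapped, although the other 3 pre-molt libraries were above the post-molt libraries. Means were 166 ± 59.4 CPM post-molt and 435 ± 327 CPM pre-molt (SD, n = 4 each). The log2 fold change was -1.39 ± 0.71 (SE; edgeR adjusted p = 0.513), and it was -1.79 with an adjusted p of 0.0585 without pre-molt 6762. It was -0.55 with limma-voom, -0.89 without pre-molt 5842 and post-molt 9678, and -1.003 without pre-molt C497.

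Few genes were this low in pre-molt 6762. Among the 7373 genes with a mean of at least 10 CPM, 3 were lowest in pre-molt 6762 by 2 or more log2 units from the next library: ANKRD2 by 4.43, MUSTN1 by 4.21 and CSRP3 by 2.23. By the same rule the other libraries had between 0 such genes (post-molt 5572 and X410) and 15 (post-molt 9678). MUSTN1, musculoskeletal embryonic nuclear protein, is not a member and was singled out after its values were seen. It had 84.0, 61.8, 48.2 and 296 CPM in post-molt seals 4448, 5572, 9678 and X410, against 60.4, 141, 2.57 and 244 CPM in pre-molt seals 5572, 5842, 6762 and C497. The depth of pre-molt 6762, 52581659 counts, lay within the range of the other libraries. Its fast fiber marker sum, 8238 CPM, was the lowest of the pre-molt libraries. Its slow fiber marker sum, 51144 CPM, lay within the pre-molt range. The part of fiber type in these low values was not tested.

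The ratio of ANKRD1 to ANKRD2 was 11.8, 3.22, 2.40 and 13.0 in post-molt seals 4448, 5572, 9678 and X410, against 0.543, 1.11, 91.4 and 3.13 in pre-molt seals 5572, 5842, 6762 and C497. The mean log2 ratio differed by 0.70 (exact permutation test, two-sided, p = 0.743). It differed by 2.25 without pre-molt 6762, with an exact p of 0.114, and by -0.22 without pre-molt 5572. ANKRD23 (DARP), the remaining member of the ankyrin family, averaged 10.2 CPM post-molt and 9.13 CPM pre-molt (edgeR log2 fold change 0.17 ± 0.36, SE).

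XIRP1 and XIRP2 encode Xin and myomaxin, actin-binding repeat proteins found at myotendinous junctions and Z-discs and at sites of fiber damage. XIRP1 had 1026, 408, 661 and 1097 CPM in post-molt seals 4448, 5572, 9678 and X410, against 675, 551, 561 and 1789 CPM in pre-molt seals 5572, 5842, 6762 and C497. Pre-molt C497 was the highest of all 8 and the other 3 pre-molt libraries fell inside the post-molt range. Means were 798 ± 322 CPM post-molt and 894 ± 599 CPM pre-molt (SD, n = 4 each), with a log2 fold change of -0.16 ± 0.41 (SE; edgeR adjusted p = 0.943) that was 0.42 without pre-molt C497.

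XIRP2 had 1451, 1282, 2574 and 2759 CPM in post-molt seals 4448, 5572, 9678 and X410, against 579, 1431, 1343 and 3748 CPM in pre-molt seals 5572, 5842, 6762 and C497. The lowest and the highest of the 8 values were both pre-molt. Means were 2016 ± 758 CPM post-molt and 1775 ± 1370 CPM pre-molt (SD, n = 4 each), with a log2 fold change of 0.18 ± 0.46 (SE; edgeR adjusted p = 0.943) that was 0.85 without pre-molt C497. XIRP2 is a long transcript, and the long transcript of TTN (titin) varied more: it had 2663, 1630, 25277 and 4194 CPM in post-molt seals 4448, 5572, 9678 and X410, against 1152, 28797, 21836 and 16475 CPM in pre-molt seals 5572, 5842, 6762 and C497. The part of this variation in the XIRP2 values was not tested. The mean log2 ratio of XIRP1 to XIRP2 differed by -0.49 (exact permutation test, two-sided, p = 0.371), and in seal 5572 XIRP1 differed by -0.72 and XIRP2 by 1.15 on the log2 scale.

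SMPX, a small protein of the costamere, the site where the sarcomere is anchored to the membrane, varied little within groups. Its CPM was 277, 298, 236 and 343 in post-molt seals 4448, 5572, 9678 and X410, against 188, 252, 138 and 168 in pre-molt seals 5572, 5842, 6762 and C497. Only post-molt 9678 and pre-molt 5842 overlapped. Means were 289 ± 44.5 CPM post-molt and 186 ± 48.6 CPM pre-molt (SD, n = 4 each). The log2 fold change was 0.63 ± 0.22 (SE; 95% confidence interval 0.15 to 1.11), with an edgeR unadjusted p of 0.0137 and an adjusted p of 0.250. In seal 5572 it was 0.67.

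Spread within groups differed between members. The within-group SD of log2 CPM was 0.27 for SRF, 0.30 for SMPX and 0.35 for ACTA1, near or under the median of 0.356 over the 7373 genes with at least 10 CPM. It was 0.74 for XIRP1, 0.88 for XIRP2, 1.01 for ANKRD1, 1.03 for ABRA, 1.21 for ACTC1, 1.82 for CSRP3 and 2.10 for ANKRD2, and these 7 genes were at the 94.5th to the 99.8th percentile of that spread. The values of ANKRD2 and CSRP3 rested on pre-molt 6762: without it their SDs were 0.38 and 0.62, beside a median of 0.351, at the 56.0th and the 88.3rd percentile. Single libraries recurred at the high end: post-molt X410 was the highest post-molt library in 7 of the 10 members, and pre-molt C497 the highest pre-molt library in 6. The same shares over all genes were not counted, so this cannot be called particular to the members. The lowest library varied more, with post-molt 5572 and 9678 each lowest post-molt in 4 members, and pre-molt 5572, 5842 and 6762 each lowest pre-molt in 3.

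**Figure D3:**
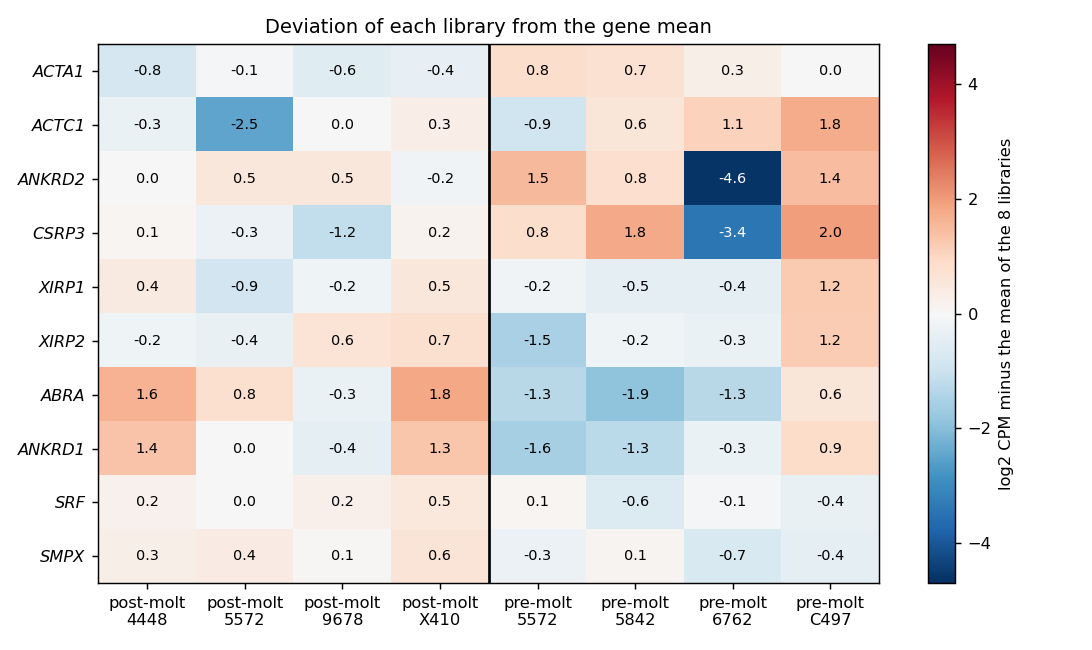
Deviation of each member's log2 CPM from its mean over the 8 libraries, with libraries in columns (4 post-molt left, 4 pre-molt right) and color giving log2 units. ANKRD2 and CSRP3 are lowest in pre-molt 6762, and ABRA and ANKRD1 are both high in post-molt 4448 and X410.

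Genes whose profile was most like that of a member were ranked by the root mean square (RMS) difference of mean-centred log2 CPM over the 8 libraries, which is a description. The nearest genes named leave out symbols starting with LOC, while the ranks given count all 14311 other tested genes. For ACTA1 they were HIBADH (0.14), TSPAN14 (0.16) and PSTPIP2 (0.16), and for SRF they were BRMS1L (0.11), SPG7 (0.12) and FAM53B (0.12). For ANKRD2 the nearest were TNFRSF19 (0.63), CSRP3 (0.92) and RBPMS (0.93), all much less close. CSRP3 was the second nearest of 14311 genes to ANKRD2, but this rested on pre-molt 6762, where both were lowest. Without it CSRP3 was at rank 7708, with an RMS difference of 0.86. TNFRSF19 and RBPMS had few reads and were also lowest in pre-molt 6762, at 0 and 0.28 CPM. In the other libraries they had 1.23 to 5.68 and 3.36 to 8.45 CPM. Their likeness to ANKRD2 without pre-molt 6762 was not examined. ABRA lay nearest to DUSP1 (0.41), PIM1 (0.50) and KLF4 (0.54), genes looked at after their values were seen. ANKRD1 was the fifth nearest to ABRA at 0.55, and the second nearest, at 0.43, without pre-molt 6762.

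Immediate-early genes, which are transcribed within minutes of a stimulus and include SRF targets that act through ternary complex factors, varied in some of the same libraries as ABRA. NR4A1, an orphan nuclear receptor, had 213, 45.7, 30.2 and 361 CPM in post-molt seals 4448, 5572, 9678 and X410, against 12.4, 15.4, 19.9 and 19.2 CPM in pre-molt seals 5572, 5842, 6762 and C497. DUSP1, a phosphatase of MAP kinases, had 529, 206, 109 and 439 CPM post-molt and 74.4, 41.2, 66.0 and 104 CPM pre-molt, in the same order of seals. FOS, a subunit of the AP-1 transcription factor, had 518, 22.7, 13.9 and 802 CPM post-molt and 16.6, 10.1, 32.4 and 35.0 CPM pre-molt. Seals 4448 and X410 were thus the highest of the 4 post-molt libraries for ABRA, ANKRD1 and all 3 of these genes. The same seals were also highest post-molt for CSRP3 and XIRP1, whose log2 fold changes were negative. The log2 fold changes were 3.28 ± 0.65 (SE; edgeR adjusted p = 0.0542) for NR4A1, 2.17 ± 0.44 (adjusted p = 0.0546) for DUSP1 and 3.85 ± 1.05 (adjusted p = 0.133) for FOS. DESeq2 called all 3, and limma-voom gave 2.34 for FOS.

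**Figure D4:**
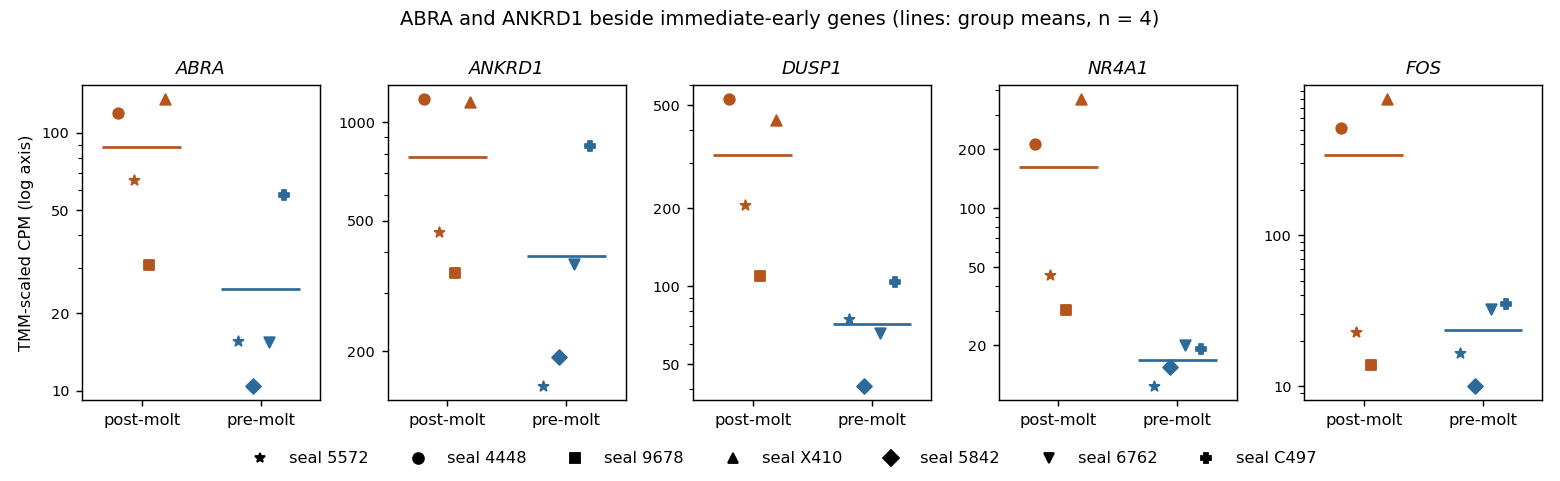
TMM-scaled CPM (log axis) of ABRA, ANKRD1 and 3 immediate-early genes, 1 panel per gene, with post-molt left of pre-molt, a symbol per seal and a line at each group mean (n = 4). Post-molt 4448 and X410 are highest for FOS at 518 and 802 CPM, where ABRA is at 120 and 135 CPM, while pre-molt C497 is high for ABRA and ANKRD1 (57.4 and 846 CPM) and not for FOS (35.0 CPM).

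The pathway around the members was followed in 7 lists holding 117 different tested genes, of which 0 passed the edgeR test. Of these, 19 had an unadjusted p under 0.05, which is 16.2%, beside 11.4% of all genes, with 8 higher and 11 lower post-molt. DESeq2 called 10 of the 109 it could adjust, 7 higher and 3 lower. Over all 10117 genes it could adjust, it called 6.44%, with 3.31% higher and 3.13% lower.

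Among 10 tested genes that are SRF cofactors or belong to the separate MEF2 family, 1 MEF2 gene was higher and 2 cofactors were lower at p under 0.05 before adjustment, and the median log2 fold change was 0.22. MKL1 (MRTFA), the actin-regulated cofactor, averaged 27.7 ± 4.75 CPM post-molt and 52.5 ± 11.3 CPM pre-molt (SD, n = 4 each), and its groups did not overlap. Its log2 fold change was -0.92 ± 0.21 (SE; edgeR adjusted p = 0.0777; DESeq2 adjusted p = 0.00186). MKL2 (MRTFB) averaged 17.4 CPM post-molt and 15.03 CPM pre-molt, with a log2 fold change of 0.21 ± 0.31 (SE). FHL2, a LIM protein that binds SRF, averaged 3.92 ± 2.01 CPM post-molt and 22.7 ± 18.8 CPM pre-molt, with a log2 fold change of -2.52 ± 0.61 (SE; edgeR adjusted p = 0.0878) that was -1.58 without pre-molt 5842 and post-molt 9678. MEF2D, a muscle transcription factor, was at 0.50 ± 0.17 (edgeR adjusted p = 0.224).

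Cytoskeletal SRF targets mostly had lower post-molt means, with 16 of 21 negative and a median log2 fold change of -0.15. Of them 3 were lower and 0 higher at an unadjusted p under 0.05. These were PDLIM7, a Z-disc adaptor, at -0.94 ± 0.37, TPM1, a tropomyosin of the thin filament, at -0.62 ± 0.25, and MYH9, non-muscle myosin, at -1.01 ± 0.42 (log2, SE), with edgeR adjusted p of 0.334, 0.337 and 0.365. PDLIM7 was at -0.38 without pre-molt 5842, and MYH9 at -0.27 without pre-molt C497. VCL (vinculin), which anchors actin at the costamere, averaged 65.7 CPM post-molt and 68.9 CPM pre-molt, with a log2 fold change of -0.07 ± 0.21.

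Immediate-early SRF targets had the highest list median, 0.83, with 11 of 15 positive and 3 higher at an unadjusted p under 0.05, the 3 given above. YAP and TAZ, cofactors of TEAD factors that also respond to tension, formed a list of 18 genes with a median of 0.17 and 0 genes at an unadjusted p under 0.05. Its smallest p belonged to AMOT, an angiomotin that binds YAP, at 0.63 ± 0.34 (log2, SE; edgeR adjusted p = 0.545).

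Titin and Z-disc partners were balanced, with 18 of 33 positive, a median of 0.02, and 3 higher and 4 lower at p under 0.05 before adjustment. MYOT (myotilin), a Z-disc protein that cross-links actin filaments, averaged 1022 ± 161 CPM post-molt and 380 ± 200 CPM pre-molt (SD, n = 4 each), and its groups did not overlap. Its log2 fold change was 1.43 ± 0.32 (SE), with an adjusted p of 0.0737 by edgeR, 8.49e-04 by DESeq2 and 0.0333 by limma-voom. HSPB8, a small heat shock protein that works in chaperone-assisted turnover at the Z-disc, averaged 918 ± 153 CPM post-molt and 484 ± 141 CPM pre-molt, with a log2 fold change of 0.92 ± 0.24 (SE; edgeR adjusted p = 0.113).

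Genes that set thin-filament length or cap filament ends mostly had lower post-molt means, with 16 of 20 negative, a median of -0.27, and 1 higher and 4 lower at p under 0.05 before adjustment. CAP2, a cyclase-associated protein that recycles actin monomers, averaged 277 CPM post-molt and 183 CPM pre-molt, with a log2 fold change of 0.60 ± 0.20 (SE; edgeR adjusted p = 0.228). WDR1, a cofactor of cofilin in filament disassembly, averaged 91.4 CPM post-molt and 132 CPM pre-molt, with -0.53 ± 0.19 (edgeR adjusted p = 0.267). KLHL41, a kelch protein that stabilizes nebulin, averaged 3052 CPM post-molt and 4307 CPM pre-molt, with -0.50 ± 0.19 (edgeR adjusted p = 0.315).

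**Figure D5:**
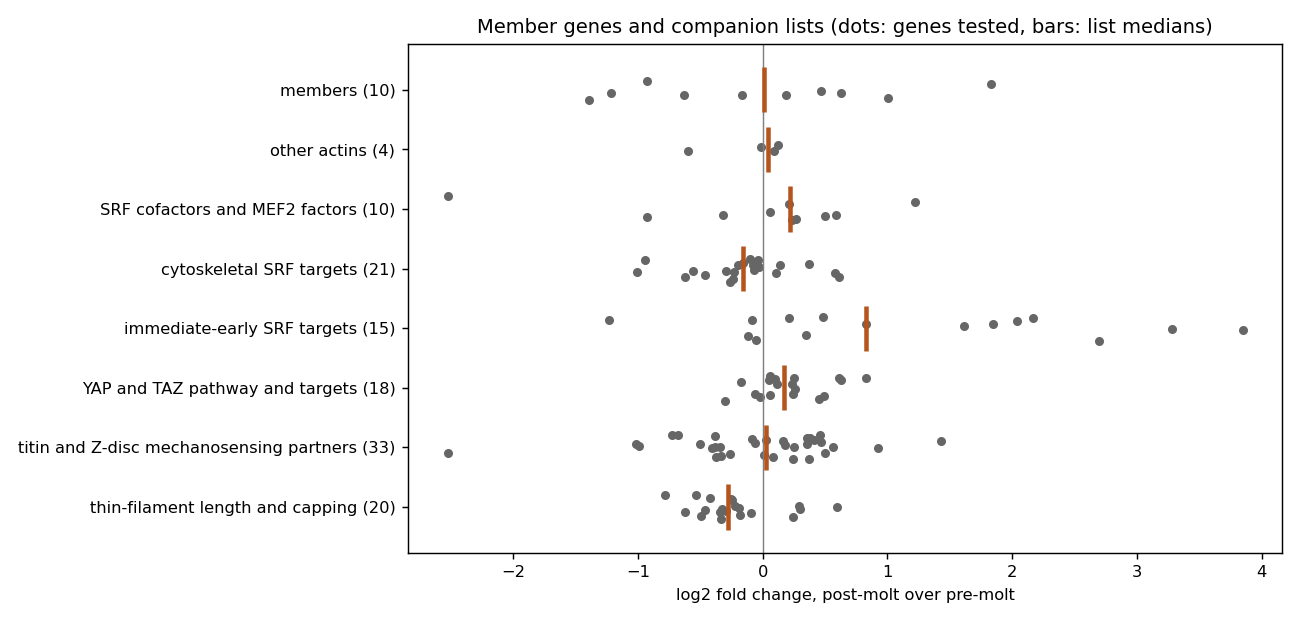
Log2 fold change (post-molt over pre-molt, edgeR) of every tested gene among the 10 members (top row) and in the 7 companion lists, 1 row per list, with 1 point per gene, a bar at the list median and a line at 0. List medians run between -0.27 for thin-filament length and capping and 0.83 for immediate-early SRF targets, and 0 of the genes passed the adjusted threshold.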

How the data were processed

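RNA was poly-A enriched from biopsies. Per the labels and the study's methods, the authors used STAR and the genome of a related species, the Hawaiian monk seal, to place reads and count them per gene, keeping only uniquely placed reads. Which strand column was taken is not given in the sources used here, so overlapping antisense genes cannot be told apart. The authors deposited raw counts for the 4 libraries per time with most uniquely placed reads. They selected these because low-quality input RNA had given poor sequencing results in some samples. The part of RNA quality in the results was not tested. Of 24349 entries, 11 that name no gene (0.0173% to 0.0259% of counts) were left out.

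Counts were fitted in edgeR 4.0.16 (R 4.3.3) with TMM factors, filterByExpr defaults and Benjamini-Hochberg adjustment at 0.05 over 14312 genes, without a block. DESeq2 1.42.0, limma 3.58.1 (voom), other scalings and filters, and leaving out libraries were alternatives. Log2 CPM used a prior count of 2. All 28 pairs of libraries differed far beyond sampling noise. P-values measure the spread between these seals. The fit was tested on simulated data.

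Members and lists were chosen with earlier results of these data known. Genes named besides the 10 members were the 3 with the smallest edgeR p in each of 7 companion lists, the other actins, MRTF genes, ANKRD23, VCL, and the nearest profiles to ACTA1, ANKRD2 and SRF. Cell type markers and TTN were named for context, and MUSTN1, PIM1 and KLF4 after their values were seen. No sequences, coordinates or gene lengths of the monk seal build were used here. One further list is not reported here.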

Additional observations from a re-analysis of the deposited data

Results flagged for a closer look

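CPM values of the members were looked at in 20 groups of 4 libraries for a single library far from the other 3. Dixon's ratio of the gap to the range was used, which chance exceeds in about 1 in 20 groups of normally distributed values. There were 2 such values, both in the pre-molt library of seal C497. ABRA was at 57.4 CPM there, where the other 3 pre-molt libraries were between 10.4 and 15.5 CPM. XIRP1 was at 1789 CPM there, where the other 3 were between 551 and 675 CPM.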

How the results depend on the processing

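With edgeR, 31 genes were called higher and 19 lower. The counts were 335 and 317 with DESeq2, 55 and 39 with limma-voom, 128 and 97 with no filter, 3 and 2 without both libraries of seal 5572, and 0 and 0 without pre-molt 5842 and post-molt 9678, the libraries with the highest TTN of each group. Pre-molt 5842 and post-molt 9678 also had the lowest uniquely mapped share of their groups in the study's mapping summary. Robust edgeR called 31 lower. Leaving out 1 library gave 7 to 28 higher and 2 to 21 lower. Of the members, DESeq2 called 1 higher and 1 lower, and leaving out 1 library called 0 to 1 higher and 0 lower.

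Of the members' fold changes, 171 alternative values kept their sign and side of the threshold, 3 passed it and 6 changed sign. ANKRD2 was 0.46 with limma-voom, and XIRP2 was -0.023 without pre-molt 5842 and post-molt 9678. Leaving out 1 library gave XIRP1 -0.35 to 0.42, XIRP2 -0.11 to 0.85, the ACTC1 to ACTA1 ratio -0.97 to 0.43 and the ANKRD1 to ANKRD2 ratio -0.22 to 2.25. Among other genes, TNFRSF19 was 1.28 with limma-voom, ACTA2 0.51, ACTG2 0.60 and MKL2 -0.059 without pre-molt 5842 and post-molt 9678, ACTB -0.0053 without both libraries of seal 5572, and ACTA2 0.0045 with no filter. Leaving out 1 library gave ACTA2 -0.82 to 0.32, ACTG1 -0.047 to 0.25, ACTG2 -1.86 to 0.19, ANKRD23 -0.075 to 0.39, TNFRSF19 -0.93 to 0.063 and VCL -0.19 to 0.042. The cause was not tested. No paired analysis was possible because only seal 5572 had libraries at both times. RMS differences and SDs without pre-molt 6762 were chosen after seeing the data.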
